A study of Mus musculus with 24 samples.

Results

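The strain difference in chromatin accessibility was measured in inhibitory interneurons of the mouse ventral hippocampus. The members are the peaks, stretches of open chromatin, of a single-nucleus ATAC sequencing (snATAC-seq) table whose counts were added over every interneuron column of a library. Of 300819 peaks in the table, 43 lay off chromosomes 1 to 19, X and Y, and 282410 of the rest had at least 10 counts over the 4 libraries and were tested. The animals were adult males, aged 10 to 16 weeks, of 2 inbred strains, C57BL/6J (B6, the strain of the mouse reference genome) and DBA/2J (D2), untreated as far as the labels say. Each strain had 2 libraries, and each library pooled ventral hippocampi of about 2 animals, so p-values concern pools and not single animals. In the main test of peaks the spread between pools was estimated over all peaks together, and a peak's own spread had no weight. The snATAC-seq nuclei were sorted on a DNA dye only, without enrichment for neurons. The nuclei of single-nucleus RNA sequencing (snRNA-seq), used further on for transcripts, were also sorted with an antibody against NeuN to enrich for neurons. The series has 24 samples in all, and the other snATAC-seq cell types and the methylation samples were not used. Reads of B6 were mapped to mm10 and reads of D2 to an mm10 carrying D2 single-base variants, so larger differences, such as deletions, extra copies or sequence found in D2 alone, were not represented in the reference.

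ATAC sequencing uses a transposase that cuts DNA where nucleosomes are absent, so the number of cuts in a peak reads out how open a promoter or an enhancer is. Hippocampal interneurons use GABA as transmitter and come mainly from the medial (MGE) and caudal (CGE) ganglionic eminences of the embryo. MGE cells include those expressing parvalbumin or somatostatin, CGE cells include those expressing VIP, and Lamp5 cells form a further subtype of neurogliaform character. Inbred strains differ in single bases, in insertions of mobile elements and in duplicated or deleted segments, and each can change the counts of a peak.

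The sequences below are the reference (GRCm38, the same assembly as mm10) at the middle of those named peaks that lay between genes or in an intron, off chromosome Y, and were under 40% repeat-masked. They are shown because these peaks had the largest strain differences. Each window is 300 bases on the plus strand, in lower case with CpG dinucleotides in capitals. The first 4 lay in peaks that were lower in D2.
chr12:20920537-20920836 (+): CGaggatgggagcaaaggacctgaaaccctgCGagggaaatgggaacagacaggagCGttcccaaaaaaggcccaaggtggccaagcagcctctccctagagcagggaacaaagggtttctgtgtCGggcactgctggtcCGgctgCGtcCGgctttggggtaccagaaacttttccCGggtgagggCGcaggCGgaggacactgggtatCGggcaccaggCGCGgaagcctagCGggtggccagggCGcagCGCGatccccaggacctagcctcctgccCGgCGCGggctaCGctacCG
chr2:127182879-127183178 (+): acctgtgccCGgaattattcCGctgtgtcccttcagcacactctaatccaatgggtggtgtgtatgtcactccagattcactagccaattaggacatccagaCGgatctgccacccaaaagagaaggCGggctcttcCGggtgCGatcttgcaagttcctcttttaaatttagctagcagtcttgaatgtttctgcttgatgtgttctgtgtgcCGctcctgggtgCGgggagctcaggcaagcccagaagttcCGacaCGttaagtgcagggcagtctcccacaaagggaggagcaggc
chr6:3201053-3201352 (+): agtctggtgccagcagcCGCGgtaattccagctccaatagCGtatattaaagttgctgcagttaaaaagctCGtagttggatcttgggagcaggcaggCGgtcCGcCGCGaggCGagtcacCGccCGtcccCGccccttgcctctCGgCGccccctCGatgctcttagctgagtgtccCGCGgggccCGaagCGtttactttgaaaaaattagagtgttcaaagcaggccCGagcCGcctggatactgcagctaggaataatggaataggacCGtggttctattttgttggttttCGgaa
chr13:59656952-59657251 (+), intron of Golm1: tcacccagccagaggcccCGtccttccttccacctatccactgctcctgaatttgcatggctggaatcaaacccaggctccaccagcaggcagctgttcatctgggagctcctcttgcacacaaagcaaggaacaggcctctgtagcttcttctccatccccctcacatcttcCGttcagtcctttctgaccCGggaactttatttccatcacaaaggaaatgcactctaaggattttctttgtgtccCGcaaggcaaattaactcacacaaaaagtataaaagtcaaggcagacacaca
The next 3 lay in peaks that were higher in D2.
chr4:122455135-122455434 (+): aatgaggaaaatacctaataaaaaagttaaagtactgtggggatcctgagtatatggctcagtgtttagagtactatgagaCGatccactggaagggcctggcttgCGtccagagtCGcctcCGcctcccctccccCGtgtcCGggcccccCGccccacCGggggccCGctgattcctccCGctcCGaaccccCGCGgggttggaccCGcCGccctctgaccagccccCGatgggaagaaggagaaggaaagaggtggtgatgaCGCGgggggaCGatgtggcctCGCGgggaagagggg
chr19:56494574-56494873 (+): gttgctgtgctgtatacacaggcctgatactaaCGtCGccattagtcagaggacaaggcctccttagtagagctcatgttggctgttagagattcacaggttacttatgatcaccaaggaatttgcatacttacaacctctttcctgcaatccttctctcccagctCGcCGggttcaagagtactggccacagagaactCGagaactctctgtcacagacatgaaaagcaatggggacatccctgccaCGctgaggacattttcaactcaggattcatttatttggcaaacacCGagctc
chrX:54179660-54179959 (+): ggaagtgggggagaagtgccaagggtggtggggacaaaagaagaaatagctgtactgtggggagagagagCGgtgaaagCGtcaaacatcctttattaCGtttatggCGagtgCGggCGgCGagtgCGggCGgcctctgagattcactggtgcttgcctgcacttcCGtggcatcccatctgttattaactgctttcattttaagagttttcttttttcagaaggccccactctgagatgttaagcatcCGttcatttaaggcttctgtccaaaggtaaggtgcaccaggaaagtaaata
The windows held 22, 10, 23 and 4 CpG in the first set and 21, 7 and 11 in the second. High and low CpG content thus occurred in both directions. The chr6 window carries the conserved core of the 18S ribosomal RNA gene, which mouse genomes hold in many copies.

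Library size followed strain. In B6 there were 8490139 and 9521289 counts from 763 and 519 nuclei, against 13401546 and 12982590 counts from 1141 and 833 nuclei in D2. Peaks at promoters (within 1 kb of an annotated transcript start) took 46.5 and 46.8% of the counts in B6 and 47.4 and 47.3% in D2. Lamp5 nuclei made up 18.9 and 19.7% of the B6 libraries and 12.8 and 16.8% of the D2 libraries, and CGE nuclei 28.7 and 21.8% against 31.8 and 30.9%. The strains did not overlap in any of these shares. The part of the nuclei shares in the results was not tested beyond the subtype fits given further on, and that of the promoter share was not tested. The CPM of promoter peaks (counts scaled to a common library total), per kilobase of peak, summed over 8 interneuron markers such as Gad1, Gad2 and Slc32a1 to 26.5 and 27.4 in B6 and 29.0 and 30.1 in D2. Over 6 excitatory markers such as Slc17a7 and Neurod2 they summed to 4.65 and 4.29 in B6 and 4.18 and 4.0 in D2. All markers of both lists had a promoter peak. Oligodendrocyte markers (2 of 3 with a promoter peak) summed to 6.19 to 7.00 and astrocyte markers (3 of 3) to 2.66 to 3.41, with overlapping strains. The promoter of Pdgfra, a receptor that marks oligodendrocyte precursors, was lower in D2, at 20.3 and 21 CPM in B6 against 13.3 and 14.9 CPM in D2 (log2 fold change -0.55 ± 0.12 SE, edgeR adjusted p = 0.000564), and its part in other differences was not tested. That call was lost in DESeq2 (adjusted p = 0.213) and without B6 library 3 or D2 library 2 (edgeR adjusted p = 0.0557 and 0.0800). The Pdgfra transcript had 2.90 and 2.55 CPM in B6 against 2.71 and 2.97 CPM in D2 (log2 fold change 0.06 ± 0.35 SE, edgeR adjusted p = 0.931). Of 189 peaks in or at 21 glial, vascular and Cajal-Retzius markers, 3 were higher and 1 lower in D2 (2.12%, beside 1.11% called over all peaks in or at genes).

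In interneurons, 3610 of 282410 peaks (1.28%) differed between the strains at an adjusted p under 0.05 in edgeR's quasi-likelihood test, 1887 (0.668%) higher and 1723 (0.61%) lower in D2. Among called peaks the median absolute log2 fold change was 1.43, and 2551 (0.903% of those tested) differed by at least 1 on the log2 scale. Over all tested peaks the median log2 fold change was 0.01. In 3607 of the called peaks the libraries of one strain lay wholly beyond those of the other. DESeq2, the study's own tool, called 803 peaks (0.284%), 322 higher and 481 lower in D2, and edgeR called all 803 of them. Their median absolute log2 fold change was 2.33. Leaving out a library gave 2136 (B6 library 2), 1794 (B6 library 3), 2037 (D2 library 2) and 2050 (D2 library 3) calls. With every library thinned to the shallowest, an alternative chosen after seeing the data because depth followed strain, 98 peaks were called with the same estimate of the spread and 2714 with a robust one.

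**Figure D1:**
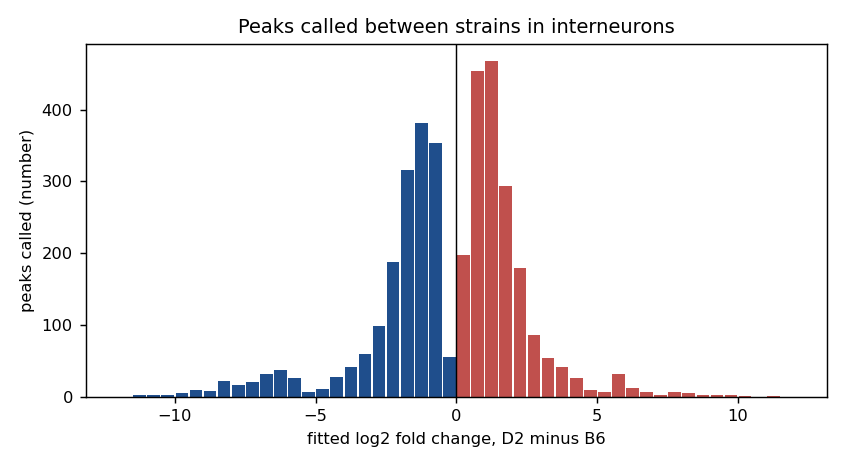
Number of peaks called (vertical axis) by fitted log2 fold change, D2 minus B6 (horizontal axis, bins of 0.5), in red where D2 is higher and in blue where B6 is higher. Of the 3610 calls, 2551 lie at 1 or more from 0, on both sides, and the bars at the far ends hold peaks with no or few counts in one strain, whose fitted fold change depends on a prior count.

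Some peaks had counts in 1 strain only. Of the tested peaks, 177 had 0 counts in both D2 libraries and 142 had 0 counts in both B6 libraries. They passed the filter through the other strain alone, and the B6 libraries were shallower, so nothing is read from how many of them were called. Among those called, 9 at 0 in D2 and 3 at 0 in B6 had a mean of at least 5 CPM. Of the peaks lower in D2, the one with the largest fitted change was chr6:47747931-47748564, between genes and 64800 bases from Pdia4, with 24.5 CPM in both B6 libraries and 0 in both D2 libraries, at least 213-fold lower in D2 when D2 is set to 3 counts over its libraries. The second of the peaks lower in D2, chr12:20919755-20921618, near the gene Asap2 for an Arf GTPase-activating protein, had 24.4 and 23.4 CPM in B6 and 0 in D2, at least 207-fold lower. Named peaks were taken from those whose strains do not overlap.

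At chr2:127182417-127183640 the B6 libraries had 16.9 and 18.7 CPM and the D2 libraries 0, at least 155-fold lower in D2. The peak with the most counts of the set, chr6:3200811-3201594, which holds the ribosomal RNA sequence printed above, had 62.4 and 58.0 CPM in B6 and 0 and 0.0782 CPM in D2. That single D2 count gives a ratio of 1563, with a 95% counting interval of 280 to 61811. Inside Golm1, which encodes a Golgi membrane protein, the intronic peak chr13:59656844-59657358 had 12.7 and 14.4 CPM in B6 and 0 in D2, at least 118-fold lower. The Golm1 transcript was also lower in D2, with 39.0 and 39.3 CPM in B6 against 8.86 and 8.91 CPM in D2 (log2 fold change -2.14 ± 0.15 SE, edgeR adjusted p = 3.02e-07). A Golm1 promoter peak was lower by less, with a log2 fold change of -0.87 (edgeR adjusted p = 1.41e-07).

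In the other direction, chr4:122455126-122455442, in a gene-poor stretch 233833 bases from the nearest protein-coding gene, had 0 counts in B6 and 21.1 and 32.7 CPM in D2, at least 162-fold higher. Near Plekhs1, chr19:56494017-56495430 had 0 counts in B6 and 10.2 and 12.1 CPM in D2, at least 67.4-fold higher. On chromosome X, chrX:54178956-54180662 rose from 0.467 and 0.522 CPM in B6 to 13.5 CPM in both D2 libraries (log2 fold change 4.73 ± 0.30 SE, edgeR adjusted p = 1.5e-53). Among 39 tested peaks of chromosome Y, which comes from the male line of each strain, 22 (56.4%) were called, 12 higher and 10 lower in D2, beside 1.28% over all peaks.

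**Figure D2:**
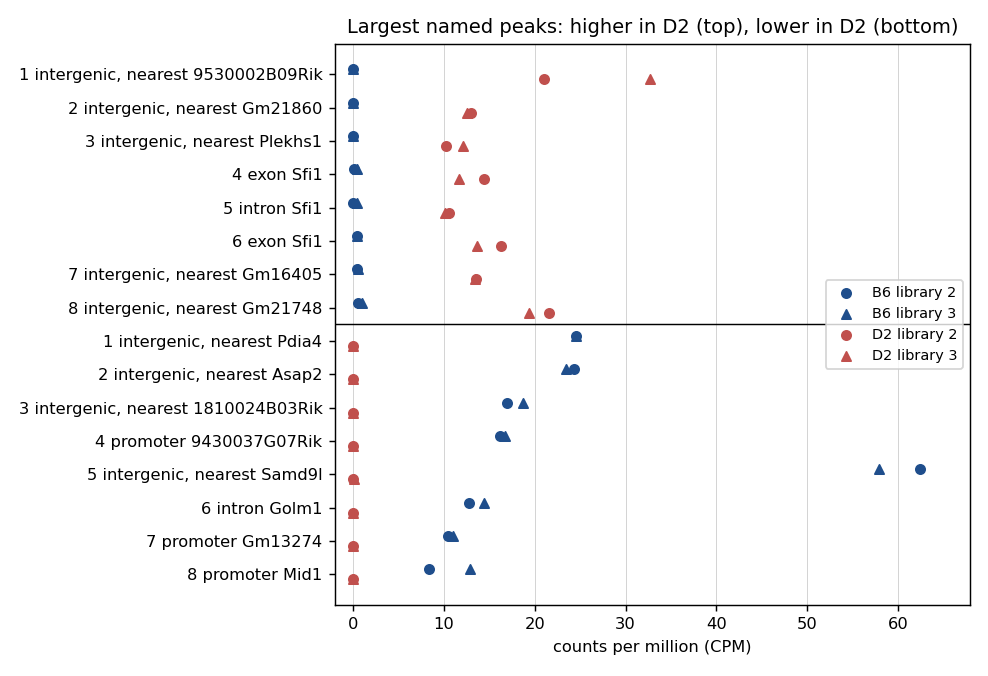
CPM (horizontal axis) of the 8 named peaks with the largest difference in each direction, named by the gene they lie in or the nearest protein-coding gene, with B6 in blue, D2 in red, circles for library 2 and triangles for library 3. In every row the pair of libraries of the lower strain sits at or near 0, apart from the other strain.

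Some differences came in blocks. Runs of at least 5 neighbouring tested peaks all called in 1 direction numbered 7 higher in D2, with 61 peaks, and 7 lower, with 49 peaks. The one with the most peaks lay over Sfi1, which encodes a centrosomal protein. There 20 consecutive peaks across 85.1 kb (chr11:3100937-3186074) were all higher in D2, and their summed CPM was 66.7 and 74.3 in B6 against 413 and 365 in D2, a ratio of 5.51. Of the 3 named Sfi1 promoter peaks, 2 were in this run and 1, with the most counts, lay beyond it. This peak, chr11:3192223-3193882, had 33.0 and 29.7 CPM in B6 and 372 and 328 CPM in D2 (log2 fold change 3.49 ± 0.06 SE). The Sfi1 transcript went from 47.1 and 39.3 CPM to 253 and 255 CPM (log2 fold change 2.56 ± 0.11 SE, edgeR adjusted p = 1.24e-09).

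The run of lower peaks with the most members, 13 across 50.8 kb (chr3:88784760-88835553), covered the noncoding gene 1500004A13Rik and part of Gon4l, a gene for a nuclear regulatory protein. In it 11 peaks had 0 counts in D2, and the summed CPM was 44.9 and 43.1 in B6 against 2.49 and 1.88 in D2, a ratio of 20.1 of B6 to D2. The 1500004A13Rik transcript fell less, from 181 and 182 CPM to 83.7 and 80.0 CPM (log2 fold change -1.15 ± 0.09 SE, edgeR adjusted p = 1.06e-06). A run of 10 peaks at Itln1, which encodes a lectin of the gut and airway (chr1:171531304-171554201), were higher in D2, from a summed 5.13 and 2.82 CPM to 26.5 and 22.3 CPM. DESeq2 called 2 of these 10, against 19 of the 20 over Sfi1 and 9 of the 13 at 1500004A13Rik. At chr4:42734790-42812404 and chr19:56494017-56511855 all 6 peaks of a run had 0 counts in B6, and at chr2:141844191-141877293, in Macrod2, all 5 had 0 counts in D2. On chromosome X, 9 peaks from Mid1 to Asmt (chrX:169978623-170676865), near the pseudoautosomal boundary, were lower in D2. Their summed CPM, like that of every run a sum over peaks chosen for being called, was 69.4 and 95.3 in B6 and 29.1 and 25.3 in D2. Of 31 tested peaks in or at Mid1, 7 were lower and 4 higher in D2 (35.5% called, beside 1.11% over all peaks in or at genes).

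At promoters, 560 of 31379 peaks (1.78%) were called, 334 higher and 226 lower in D2. Among promoter peaks of at least 5 CPM, the largest rises after Sfi1 were at Stab2, Prss32 and Prss41, Egf, Zfp957 and A430073D23Rik. The promoter of Stab2, a scavenger receptor of liver endothelium, went from 1.75 and 1.98 CPM to 9.74 and 7.98 CPM (log2 fold change 2.24 ± 0.24 SE, edgeR adjusted p = 9.18e-17), and its transcript from 5.0 and 5.55 CPM to 146 and 190 CPM. The promoter shared by the serine protease genes Prss32 and Prss41 rose by 2.23 ± 0.22 SE (log2), and the Prss41 transcript had 0 and 1 counts in B6 against 51 and 43 in D2. The promoter of Egf, the epidermal growth factor gene, had 1.28 and 2.30 CPM in B6 and 7.63 and 8.99 CPM in D2 (log2 fold change 2.19 ± 0.25 SE), and its transcript had a log2 fold change of 1.49.

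The promoter of Fggy, a carbohydrate kinase gene, was at 26.6 and 25.1 CPM in B6 and 2.04 and 2.03 CPM in D2 (log2 fold change -3.66 ± 0.17 SE, edgeR adjusted p = 8.1e-97), and its transcript fell from 41.9 and 42.0 CPM to 2.43 and 1.67 CPM (log2 fold change -4.31 ± 0.21 SE). The noncoding gene 9430037G07Rik lost its promoter peak altogether, at 16.2 and 16.7 CPM in B6 and 0 in D2, and its transcript fell by 4.38 ± 0.51 SE on the log2 scale. Not every absent promoter peak went with the transcript. Asap2 had a promoter peak of 9.33 and 11.2 CPM in B6 and 0 in D2, at least 89.4-fold lower, while its transcript had 58.8 and 63.4 CPM in B6 and 82.1 and 62.8 CPM in D2 (log2 fold change 0.25 ± 0.12 SE, edgeR adjusted p = 0.191). At Mid1, a microtubule-binding ubiquitin ligase gene, the promoter peak at the shared start with G530011O06Rik was at 0 in D2 and the Mid1 transcript had a log2 fold change of 0.61 (edgeR adjusted p = 0.108).

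Across the transcripts of the same interneurons, measured by snRNA-seq in other nuclei, 2429 of 15495 (15.7%) differed, 1072 (6.92%) higher and 1357 (8.76%) lower in D2. DESeq2 called 1132, and edgeR called 1251 without B6 library 3. The DESeq2 count was out of 21635 transcripts, so filter and tool both changed. With no filter beyond 1 count in each strain, edgeR called 2652 of 21635. With a crossed replicate block, chosen after seeing the data, edgeR called 4309 of 15495. The shares that follow use the calls of edgeR's main fit with all libraries. Among 248 tested transcripts whose promoter peak was higher in D2, 60 (24.2%) were higher and 16 (6.45%) lower. Among 144 with a lower promoter peak, 53 (36.8%) were lower and 4 (2.78%) higher. Where no promoter peak was called, 6.48% were higher and 7.96% lower. From the side of the transcripts, 60 of 962 higher transcripts with a promoter peak (6.24%) and 53 of 1173 lower ones (4.52%) had a promoter call in the same direction. Over all tested transcripts with a promoter peak, 248 had a higher one, 144 a lower one, 3 had both and 13850 had none called.

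**Figure D3:**
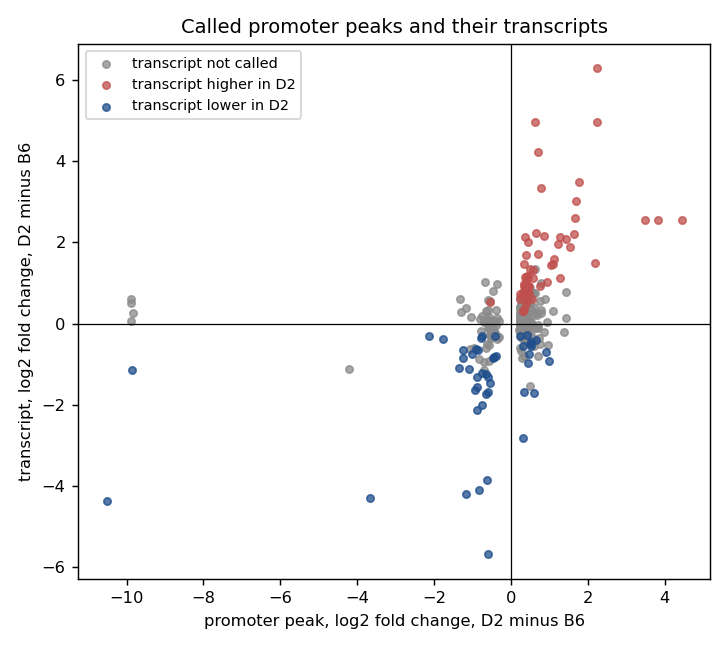
Fitted log2 fold change, D2 minus B6, of called promoter peaks of at least 5 CPM (horizontal axis) and of the gene's transcript (vertical axis), 1 point for each pair of peak and gene, in red for transcripts higher in D2, blue for lower and grey for not called. Coloured points lie mostly in the upper right and lower left, with 84 genes called in the same direction in both and 15 called in opposite directions.

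The genes called in both readouts had varied roles. Beside those above, Cd59a, a complement inhibitor, had log2 fold changes of 1.66 at the promoter and 2.60 in the transcript, and Adam33, a metalloprotease, 1.70 and 3.03. Fmo1, a flavin monooxygenase, had 1.22 and 1.97, and Glyctk, a glycerate kinase, 1.42 and 2.09. On the lower side, Myo7a, a myosin of sensory hair cells, had -1.18 and -4.21, Kcnip3, a calcium sensor of potassium channels, -0.64 and -1.24, and Uvrag, an autophagy gene, -2.14 and -0.32. The Kcnip3 promoter was not called by DESeq2 (adjusted p = 0.074), and the promoters of the other 6 genes were. These 7 genes were picked for the text after their values were seen.

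Opposite calls were found at 15 genes with a promoter peak of at least 5 CPM. In Fancc, a Fanconi anaemia DNA repair gene, the promoter had a log2 fold change of 0.46 and the transcript -0.97. Btbd9 had 0.93 and -0.70. Of the promoters of these 15 genes, DESeq2 called only those of Fancc and Btbd9 (adjusted p = 0.0159 and 1.55e-13). Both had higher promoter counts and lower transcript levels in D2, and at Btbd9 a difference in copy number and one in accessibility cannot be told apart. Among these 15 the converse was called at Car11, a carbonic anhydrase relative, with -0.54 at the promoter and 0.54 in the transcript, and DESeq2 did not call that promoter (adjusted p = 0.237). Except for Btbd9, these were chosen after their values were seen.

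A list of 18 genes was made of loci known to differ between these strains, in copy number, haplotype or otherwise, so their difference is not independent evidence. Of 260 peaks in or at these genes, 23 (8.85%) were higher and none lower in D2, beside 1.11% called either way over all peaks in or at genes. At Alad, which encodes an enzyme of haem synthesis, the promoter had 23.3 and 24.3 CPM in B6 against 72.2 and 67.3 CPM in D2 (log2 fold change 1.55 ± 0.08 SE, edgeR adjusted p = 9.56e-75). Its neighbour Hdhd3, a phosphatase-like gene, had 22.2 and 21 CPM against 68.7 and 66.3 CPM (log2 fold change 1.65 ± 0.08 SE, edgeR adjusted p = 3.65e-80). From 50 kb before to 50 kb after their promoter peaks, 4 of 18 tested peaks were called (22.2%), all higher, with a median log2 fold change of 0.17. Those 4 lay within 25.3 kb. The transcripts rose too, by 1.88 ± 0.21 SE for Alad and 2.20 ± 0.43 SE for Hdhd3 (log2).

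The windows before the starts of Alad, H2-K1 and Fggy, from RefSeq on GRCm38, are the 250 bases upstream of the transcript start on the gene's strand, with CpG in capitals, and hold 13, 9 and 7 CpG. They were searched on both strands for the homeodomain core TAATTA, the AP-1 core TGANTCA and the E-box CANNTG. The E-box was found in Alad and not in the other windows, and the other cores in none of the 3.
Alad, chr4:62520064-62520313 (-): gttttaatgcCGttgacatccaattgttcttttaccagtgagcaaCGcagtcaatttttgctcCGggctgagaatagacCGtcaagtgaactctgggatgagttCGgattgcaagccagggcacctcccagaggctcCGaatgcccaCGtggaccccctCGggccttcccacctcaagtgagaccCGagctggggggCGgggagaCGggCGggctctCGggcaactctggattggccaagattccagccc
H2-K1, chr17:34000348-34000597 (-): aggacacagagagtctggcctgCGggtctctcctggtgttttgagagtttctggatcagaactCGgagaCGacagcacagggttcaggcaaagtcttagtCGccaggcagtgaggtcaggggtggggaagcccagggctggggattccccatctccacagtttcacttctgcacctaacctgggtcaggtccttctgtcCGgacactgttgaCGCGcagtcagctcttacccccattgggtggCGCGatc
Fggy, chr4:95557257-95557506 (+): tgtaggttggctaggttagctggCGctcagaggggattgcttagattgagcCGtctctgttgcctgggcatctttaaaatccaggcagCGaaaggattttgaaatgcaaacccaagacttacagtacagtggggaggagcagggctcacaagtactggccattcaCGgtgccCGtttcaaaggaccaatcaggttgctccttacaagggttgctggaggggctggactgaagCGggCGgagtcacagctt

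In the second such locus, peaks from Btbd9, a gene linked to restless legs syndrome, through Glo1 and Dnah8 to Glp1r were higher in D2. From 50 kb before the first promoter peak of Btbd9 to 50 kb after the last of Glp1r (chr17:30241732-30952165), 21 of 142 tested peaks were called (14.8%), all higher in D2, with a median log2 fold change of 0.52. The called ones lay in 445 kb (chr17:30467494-30912129), a stretch set by the calls, where 73 of 78 peaks had a positive log2 fold change. The promoter of Glo1, the enzyme glyoxalase I that detoxifies methylglyoxal, had 23.8 and 27.8 CPM in B6 and 48.6 and 51.2 CPM in D2 (log2 fold change 0.95 ± 0.09 SE, edgeR adjusted p = 7.28e-25), and its transcript rose by 1.02 ± 0.21 SE. The promoter of Btbd9 rose alike, from 36.3 and 34.8 CPM to 66.4 and 68.5 CPM, whereas the transcript fell from 169 and 171 CPM to 103 and 106 CPM (log2 fold change -0.70 ± 0.09 SE, edgeR adjusted p = 0.00011).

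In Dnah8, a gene for an axonemal dynein, an intronic peak (chr17:30697666-30698244) went from 0.467 and 0.731 CPM to 4.61 and 5.32 CPM, the largest log2 fold change of the block at 3.01 ± 0.37 SE. Of 7 tested peaks at annotated starts of Dnah8, the 1 called, chr17:30745007-30746981, had 7.00 and 8.36 CPM in B6 and 11 and 14 CPM in D2 (log2 fold change 0.70 ± 0.16 SE, edgeR adjusted p = 0.00172). That call was lost in DESeq2 (adjusted p = 0.521) and without B6 library 2 or D2 library 3 (edgeR adjusted p = 0.151 and 0.350). The Dnah8 transcript was nearly absent in B6, at 0.967 and 0.600 CPM against 15.6 and 13.9 CPM in D2. At Glp1r, the receptor for glucagon-like peptide 1, the promoter had 5.48 and 4.28 CPM in B6 and 10.3 and 9.54 CPM in D2 (log2 fold change 1.03 ± 0.19 SE, edgeR adjusted p = 1.72e-05, DESeq2 adjusted p = 0.0599). Its transcript had 0 counts in both B6 libraries and 131 and 106 counts in the D2 libraries.

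**Figure D4:**
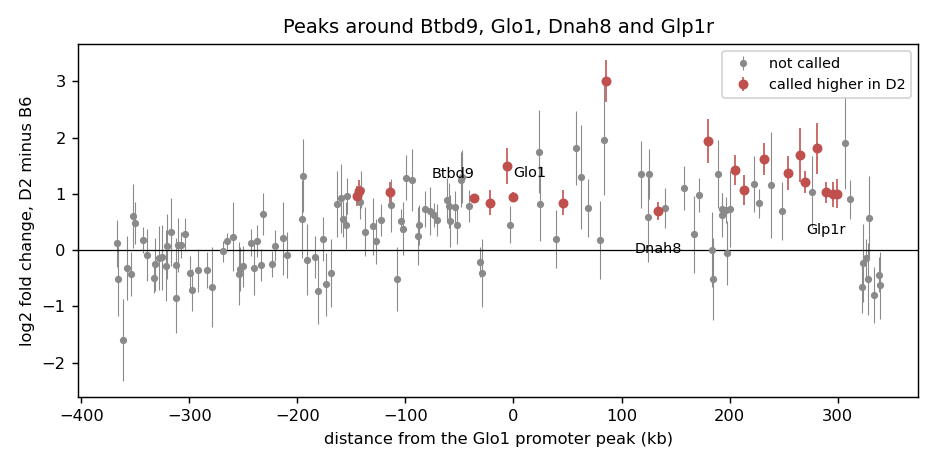
Fitted log2 fold change, D2 minus B6, with standard error bars (vertical axis) of every tested peak around Btbd9, Glo1, Dnah8 and Glp1r, by distance from the Glo1 promoter peak in kb (horizontal axis), in red where called and in grey where not. The 21 called peaks all lie above 0, as do 73 of the 78 peaks between the first and the last of them, and peaks to the left and right of that stretch scatter around 0.

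Class I histocompatibility genes present peptides to T cells and differ in haplotype between the strains. Of these, H2-D1 and H2-K1 also had higher promoter counts in D2, and the class as a whole was not counted. H2-D1 had 22.7 and 20.8 CPM in B6 and 41.2 and 38.9 CPM in D2 (log2 fold change 0.88 ± 0.09 SE, edgeR adjusted p = 4.15e-18). H2-K1 had 10.3 and 12.2 CPM against 17.9 and 19.2 CPM (log2 fold change 0.71 ± 0.13 SE, edgeR adjusted p = 9.27e-06, DESeq2 adjusted p = 0.0574). The H2-K1 transcript was higher in D2 (log2 fold change 1.71 ± 0.38 SE, edgeR adjusted p = 0.00713), and that of H2-D1 had a log2 fold change of 0.61 (edgeR adjusted p = 0.157). Reads of such paralogous and polymorphic genes can be split by mapping, which makes both values uncertain. Mpdz, Kcnj9, Gabra2 and Nnt, other loci of this list, had no promoter peak called. The transcripts of Mpdz and Gabra2 were lower in D2 (log2 fold change -0.63 and -0.29, edgeR adjusted p = 0.000699 and 0.036), that of Kcnj9 was higher (0.50, edgeR adjusted p = 0.0285) and that of Nnt had -0.29 (edgeR adjusted p = 0.609).

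The shares of called peaks in the lists of interneuron genes are given as a description beside the share over all gene peaks. None of 83 peaks in or at the 8 genes of GABA synthesis, packaging and uptake was called by edgeR or DESeq2, and 6 had an unadjusted p under 0.05 in edgeR. The main promoter peak of Gad1, which makes most GABA, had 46.4 and 48.4 CPM in B6 and 52.1 and 57.5 CPM in D2 (log2 fold change 0.21 ± 0.07 SE, edgeR adjusted p = 0.19), and that of the vesicular transporter Slc32a1 had 38.7 and 36.0 CPM against 39.9 and 34.1 CPM (log2 fold change -0.01 ± 0.08 SE, edgeR adjusted p = 0.99). Of 634 peaks at 30 interneuron transcription factors 5 (0.789%) were called, all higher, and of 443 peaks at 37 peptide and subtype marker genes 2 (0.451%), both lower. GABA-A receptor subunit genes had 5 of 454 (1.10%), ion channel genes 4 of 1044 (0.383%) and synaptic receptor and organiser genes 22 of 3846 (0.572%), beside the 1.11% over all peaks in or at genes. Of 147 peaks at excitatory neuron markers 0 were called by edgeR or DESeq2, and 9 had an unadjusted p under 0.05 in edgeR.

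The called promoters in these lists changed little in size. Dlx1, a homeobox gene of interneuron development, had a promoter peak at 44.8 and 42.5 CPM in B6 and 53.7 and 55.1 CPM in D2 (log2 fold change 0.32 ± 0.08 SE, edgeR adjusted p = 0.00415), and a neighbouring one with a log2 fold change of 0.41 ± 0.11 SE. Maf, a factor of MGE interneurons, had 47.7 and 52.1 CPM against 59.7 and 59.6 CPM (log2 fold change 0.25 ± 0.07 SE, edgeR adjusted p = 0.0397). Both genes' transcripts had fold changes of the other sign (log2, -0.32 and -0.26) that did not pass the test (edgeR adjusted p = 0.0904 and 0.0827). A promoter peak of Cort, the cortistatin gene, was lower in D2 with 16.8 and 22.8 CPM against 13.7 and 15.2 CPM (log2 fold change -0.46 ± 0.12 SE, edgeR adjusted p = 0.0108), and its transcript had 45.8 and 25.3 CPM in B6 against 14.0 and 26.4 CPM in D2 (log2 fold change -0.84 ± 0.27 SE, edgeR adjusted p = 0.0497). The strains overlap in this transcript. None of the Dlx1, Maf and Cort promoter calls was made by DESeq2 (adjusted p = 0.589 and 1.00 for Dlx1, 1.00 for Maf and for Cort). Without B6 library 2, B6 library 3 or D2 library 3 neither Dlx1 peak passed (edgeR adjusted p from 0.0515 to 0.280 for the first and from 0.198 to 0.486 for its neighbour). Leaving out any 1 of the 4 libraries ended the Maf call (edgeR adjusted p from 0.117 to 0.550), as did RLE normalization (edgeR adjusted p = 0.0562). Without B6 library 3 the Cort promoter had a log2 fold change of -0.22 (edgeR adjusted p = 0.780), and without D2 library 2 one of -0.39 (edgeR adjusted p = 0.263).

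Outside promoters, the largest of the list peaks of at least 5 CPM, chosen after their values were seen, lay in introns. In Gphn, the scaffold of inhibitory synapses, chr12:78350530-78351037 had 47.2 and 45.6 CPM in B6 and 84.7 and 103 CPM in D2 (log2 fold change 1.02 ± 0.07 SE, edgeR adjusted p = 1.08e-45), and DESeq2 called it too (adjusted p = 1.12e-15). The Gphn transcript rose by 0.28 (log2). In Syt1, the calcium sensor of transmitter release, chr10:108728715-108729220 had 2.45 and 3.86 CPM against 6.19 and 8.37 CPM (log2 fold change 1.18 ± 0.23 SE). Cacna1a, the P/Q-type calcium channel gene, held a peak at 7.23 and 7.00 CPM against 10.9 and 14.1 CPM (log2 fold change 0.81 ± 0.16 SE), and Gabrb2, a GABA-A receptor subunit gene, one at 8.28 and 7.21 CPM against 4.68 and 4.61 CPM (log2 fold change -0.73 ± 0.20 SE). These last 3 were not called by DESeq2 (adjusted p = 0.128, 0.188 and 0.964). The Syt1 transcript had a log2 fold change of -0.10 (edgeR adjusted p = 0.458). That of Cacna1a was lower in D2 (log2 fold change -0.47, edgeR adjusted p = 0.0024), opposite to its peak, and that of Gabrb2 was lower too (log2 fold change -0.35, edgeR adjusted p = 0.022).

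In each subtype most called peaks kept their sign. Of the 3610 called peaks, 3454 of the 3463 tested in MGE interneurons alone had the sign of the whole, as had 3040 of 3081 in CGE and 2332 of 2463 in Lamp5 interneurons, counts that are part of the sum itself. In a test of whether the strain difference itself differed between MGE and CGE interneurons of the same libraries, 0 of 273899 peaks (0%) passed in edgeR, with a lowest adjusted p of 0.280, and 0 in DESeq2. At an unadjusted p under 0.05, edgeR had 11159 peaks (4.07%) and DESeq2 630. Without B6 library 2, 1 peak passed in edgeR, chr17:39842995-39848781, by a log2 difference of 0.30.

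The calls were counted in windows of the genome, as a description. Of 2037 windows of 1 Mb with at least 50 tested peaks, 770 (37.8%) had no call, while 75 had more than 5% of their peaks called. The window with the most was chr1:171000001-172000000, which holds Itln1, with 29 of 143 peaks called, 25 of them higher in D2. It was followed by chr11:3000001-4000000 with Sfi1 (21 of 146, all higher) and chr17:30000001-31000000 with Glo1 (21 of 205, all higher). The longest stretch without a call, chr10:34000001-47000000, held 1362 tested peaks. Chromosome 17 had 2.00% of its peaks called and chromosome X 0.675%.

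CpG density, the number of CpG sites per kilobase in the 2 kb around a peak, is the property on which the study orders its sites. Of peaks at up to 25 CpG/Kb 1.20% were called, of those over 25 to 40 CpG/Kb 2.78% and of those over 40 CpG/Kb 2.24%. Depth moved with density, since the median peak of the 3 classes had 47, 499 and 1361 counts, and its part was not tested in a model. Under 50 counts the shares of the 3 classes were 0.445% (609 of 136889), 2.07% (17 of 821) and 10.5% (15 of 143). Calls in that bin had median absolute log2 fold changes of 2.88, 6.47 and 4.47 in the 3 classes. From 50 to under 200 counts the shares were 1.68, 2.79 and 4.09%. From 200 to under 1000 counts they were 2.93, 2.97 and 2.95%, and from 1000 counts up 5.82, 2.78 and 1.56%. The share thus rose with density in the shallow bins, was level in the third and fell in the deepest. Promoters and other peaks were apart in both denser classes, and no test of this was run. Over 25 to 40 CpG/Kb, 4.13% of other peaks and 2.09% of promoter peaks were called. Over 40 CpG/Kb, 158 of 8792 promoter peaks (1.80%) were called, with a median absolute log2 fold change of 0.41, against 56 of 775 other peaks (7.23%), with 2.11. In peaks of 1000 counts or more and over 40 CpG/Kb, calls were mostly higher in D2, 84 against 14, beside a median log2 fold change of 0.06 over all peaks of that class.

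**Figure D5:**
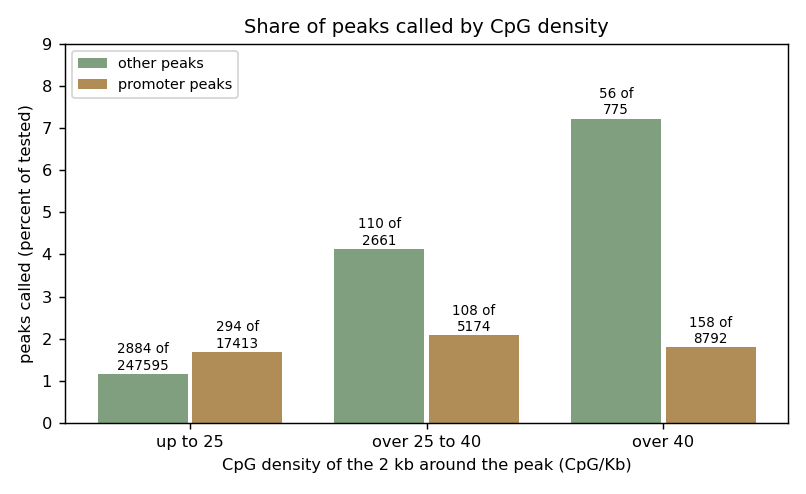
Percent of tested peaks called (vertical axis) by CpG density of the surrounding 2 kb in CpG/Kb (horizontal axis), in brown for promoter peaks and green for other peaks, with the numbers called and tested above each bar. The share rises with density in other peaks, from 1.16 to 7.23%, and stays between 1.69 and 2.09% in promoter peaks.

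Sequence features of called peaks are given as a description. The middle 300 bases held TAATTA in 9.27% of peaks higher in D2, 7.25% of those lower and 8.78% of all tested. The AP-1 core TGANTCA was in 14.0, 13.5 and 14.3%, and the E-box CANNTG in 82.3, 82.6 and 85.0%, both strands searched. The median GC content was 47.7% in peaks higher in D2, 48.0% in those lower and 46.6% in those not called. The median CpG density of the peak itself was 14.0, 13.7 and 10.8 CpG/Kb in the same order.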

How the data were processed

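The authors deposited raw counts (snATAC-seq per peak, snRNA-seq per gene) summed over the nuclei of each cell type and library. They mapped snATAC-seq reads with Cell Ranger ATAC 2.0.0 and snRNA-seq reads with Cell Ranger 6.0.2 (introns kept), removed doublets, called peaks per sample and merged them, and annotated cell types by integration with snRNA-seq. A peak was thus counted alike in both strains, but reads from sequence that differs from the strain's reference could be lost.

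Here the counts of the MGE, CGE and Lamp5 interneuron columns were added per library (8490139 to 13401546 counts, 3256 of 27206 nuclei). The tables number the libraries 2 and 3 and the labels number the replicates 1 and 2, so columns were placed by strain only. In all, 48 snATAC-seq and 56 snRNA-seq columns were not used, among them those of Exc-DG, so the planned comparison with that cell type was not run. The main test was edgeR 4.0.16 (R 4.3.3), TMM, a quasi-likelihood F test for strain (D2 minus B6) as the only term, and Benjamini-Hochberg adjustment over all peaks tested. Transcripts were kept by filterByExpr, with counts in both strains. The biological coefficient of variation was 0.0464 for peaks and 0.0754 for transcripts. Permuting 2 libraries against 2 exactly gives p = 0.33 at the lowest, so the p-values are those of the model over all peaks. CPM were computed with TMM-scaled library sizes, SE was derived from F, and a strain at 0 was set to 3 counts over its libraries, which makes the fold a lower bound. The subtype test used library as a block.

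Peaks were assigned to GENCODE vM21 on GRCm38 (promoter, then exon, intron and intergenic). Named peaks are, among called peaks averaging 5 CPM or more with non-overlapping strains, the 8 with the largest fitted change in each direction, the same for promoters, the 5 runs with the most peaks in each direction, and called promoter peaks of the gene lists. The members and lists were chosen with earlier results of these data known. On simulated counts (276174 peaks, 200 changed), 69% of changes of 1 and 100% of changes of 2 on the log2 scale were recovered, and 2.31% of calls were false. The changes were placed only in peaks with at least 100 counts, and every simulated peak had the same spread. These shares were not measured for shallower peaks or for a spread that differs between peaks. DESeq2 1.42.0 and Python 3.11.15 (scipy 1.17.1, pandas 2.3.3, matplotlib 3.10.9 and numpy 2.4.6) were also used. Intervals cover counting error only.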

Additional observations from a re-analysis of the deposited data

How the results depend on the processing

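The count of 3610 peaks called depended on the tool, on the libraries used and, after thinning, on how the spread was estimated. DESeq2 called 803, and 38319 peaks had no adjusted p there. Fits of a single subtype called 2039 (MGE), 492 (CGE) and 415 (Lamp5), with fewer nuclei each. Leaving out a library gave 1794 to 2136, with the strain's lone library assumed to vary like the other strain's. With every library thinned to the shallowest, an alternative chosen after seeing the data as were the Lamp5 fit, the robust estimates, the crossed pairing and the count without chromosome Y and mostly repeat-masked peaks, 98 peaks were called (49 in each direction) with the spread estimated as in the main test and 2714 with a robust estimate of the spread, while the robust estimate left the unthinned count at 3610. The estimated prior degrees of freedom were 4.56 and 850 in these thinned fits and infinite in the unthinned one. Other settings (RLE normalization, other filters, a fold limit of 1) and the count without chromosome Y and mostly repeat-masked peaks gave 2551 to 3568. RLE split the calls into 1786 higher and 1782 lower.

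The deviations of same-numbered libraries had a correlation of 0.02 over 40673 peaks and -0.19 over 12154 transcripts. With 2 libraries per strain this cannot show whether libraries shared a batch, and the labels name none. The library number as a replicate block gave 3540 peaks and 2440 transcripts, and the crossed pairing gave 4309 transcripts. For transcripts, the DESeq2 fit tested 21635 against 15495 in the main test, so filter and tool both changed. With no filter beyond 1 count in each strain, edgeR called 2652 of 21635. The transcript count of 2429 became 1132 with DESeq2 and 1251 to 2543 without 1 library. The interaction of strain with subtype had 0 to 1 peaks without 1 library. Promoters within 2 kb had 690 called peaks. Of 42 named peaks, 34 kept direction and call in all 7 settings tried, 8 lost the call in at least 1 setting (Pdgfra, both of Dlx1, Maf, Cort, Dnah8, Glp1r and H2-K1) and none reversed. All 8 were promoter peaks of the gene lists, which were not picked by size of change. Most other named peaks were picked for the largest fitted change, so their keeping the call says little about the rest of the 3610. Peaks under 50 counts had 0.465% called, against 2.93% from 200 to under 1000 counts.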
